A study of Mus musculus with 9 samples.

Results

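Collagen chain genes were followed across 9 RNA-seq libraries of mouse brown adipose tissue (BAT). The family was chosen with earlier results of these data known, and its members were then taken by name and by detection. FPKM is a fragment count scaled by transcript length and by sequencing depth. Members are all symbols made of Col, a number, a and a number, with an FPKM above 0 in all 9 libraries. The tables hold 44 such symbols, and 33 of them met the second condition out of 14675 genes that did so. The 33 members comprise 9 fibrillar, 6 basement membrane, 4 beaded filament and 6 FACIT chains (chains that attach to the surface of fibrils), together with 2 multiplexins, 3 transmembrane chains, the short-chain collagen *Col8a1*, the anchoring fibril chain *Col7a1* and *Col28a1*. The other 11 symbols were at 0 in at least 1 library and were not tested.

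The libraries came from mice whose growth hormone releasing hormone gene was disrupted by targeting (GHRH-KO, labelled KO) and from their wild-type littermates (WT). GHRH is the hypothalamic peptide that makes the pituitary release growth hormone. The colony had a mixed C57BL6 and 129SV background, all animals ate the same standard chow, and their ages are not given in the sources used here. Each library was made from 1 mouse: 3 WT females, 2 WT males, 2 KO females and 2 KO males. The disruption is carried in the germ line and is not limited to BAT. Below, values listed for the libraries labelled KO run in the order KO female 1, KO female 2, KO male 1, KO male 2, and those labelled WT in the order WT female 1, 2 and 3, WT male 1 and 2.

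Collagens are the main structural proteins of the extracellular matrix. Their chains wind around each other into a helix, are hydroxylated and glycosylated in the endoplasmic reticulum, and are then trimmed, assembled and cross-linked outside the cell. Fibrillar collagens bear tension in connective tissue septa, type IV collagen forms the sheet around each adipocyte and capillary, and type VI collagen links fibrils with basement membranes and is abundant in adipose tissue.

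The genotype labels could not be checked by the targeted gene. The FPKM of *Ghrh* was 0.846, 0.233, 0.799 and 0.470 in the mice labelled KO, and the gene was listed at 0 in each of the 5 labelled WT. Loss of the whole transcript would leave none under the KO label, but which part of the gene was removed is not given in the sources used here. Values of *Ghr*, the growth hormone receptor, were 42.2 to 51.6 FPKM in mice labelled KO and 62.8 to 155 FPKM in those labelled WT. *Igf1*, which growth hormone induces, was at 0.713 to 2.46 FPKM against 2.13 to 8.80 FPKM, so both lay lower in mean under the KO label. Every direction reported here rests on the labels. The depth estimated from low values lay between 0.915 and 1.14 relative to WT female 1, and KO male 1 stood apart from the other libraries (Spearman correlation 0.924 to 0.934). Brown adipocyte markers (*Ucp1*, *Cidea* and 5 others) summed to 5517 to 7330 FPKM in libraries labelled KO and 5349 to 7005 FPKM in those labelled WT, with no marker at 0.

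Markers of other cells differed between the genotypes. In this bulk tissue, fewer cells of a type and less RNA per cell cannot be told apart. All 6 pericyte and smooth muscle markers had lower mean FPKM in libraries labelled KO, and their sum did not overlap, at 68.5 to 87.0 FPKM against 109 to 119 FPKM. Of the 10 fibroblast and progenitor markers, 9 had a lower mean, and the sums of 170.4 to 286 FPKM and 209 to 356 FPKM overlapped. Within that list, *Lum*, *Pdgfrb* and *Clec3b* were lower in every library labelled KO than in every library labelled WT, as were 6.04% of all genes. *Dcn*, the most abundant gene of the list, did not separate the genotypes (73.5 to 153 FPKM against 92.2 to 153 FPKM). All 6 endothelial markers were lower in mean, with overlapping sums (100.1 to 155 FPKM against 130.4 to 168 FPKM). All 10 skeletal muscle markers were higher in mean, and their sums did not overlap, at 2367 to 10638 FPKM against 371 to 1999 FPKM. For 7 of the 10, every library labelled KO lay above every library labelled WT, as for 3.03% of all genes. The 6 white adipocyte markers were all lower in mean, with sums of 39.8 to 97.6 FPKM against 82.8 to 339.7 FPKM, and the 3 markers of all adipocytes (*Adipoq*, *Plin1*, *Fabp4*) summed to 9718 to 14009 FPKM against 13220 to 16606 FPKM. Schwann cell sums (13.4 to 62.2 against 27.8 to 35.2 FPKM), macrophage sums (6.15 to 47.5 against 9.38 to 25.4 FPKM) and cartilage and tendon sums (0.860 to 2.27 against 0.780 to 1.96 FPKM) overlapped. The highest muscle, Schwann and macrophage sums were all those of KO male 1. No marker in these lists was at 0 in any library, and their part in the collagen differences was not tested.

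The collagen members were lower in libraries labelled KO as a whole. Their summed FPKM was 167, 139, 119 and 149 in libraries labelled KO and 270.5, 247, 258, 185 and 287 in those labelled WT. Every library labelled KO thus lay below every library labelled WT, the nearest pair being KO female 1 and WT male 1. These sums made up 0.0277% to 0.0408% of all FPKM in libraries labelled KO and 0.0457% to 0.0695% in those labelled WT. The totals include *Mir6236*, at 15287 to 45733 FPKM in libraries labelled KO and 9505 to 16678 FPKM in those labelled WT. Its effect on these shares was not tested. The same 7 chains, *Col1a1*, *Col1a2*, *Col3a1*, *Col4a1*, *Col4a2*, *Col6a1* and *Col6a2*, held 78.9% to 80.7% of the collagen sum in libraries labelled KO and 80.3% to 81.8% in those labelled WT. By mean FPKM, a measure per length of transcript, both genotypes ranked them in 1 order, from *Col4a1*, *Col4a2* and *Col3a1* through *Col6a2*, *Col6a1* and *Col1a2* to *Col1a1*.

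**Figure D1:**
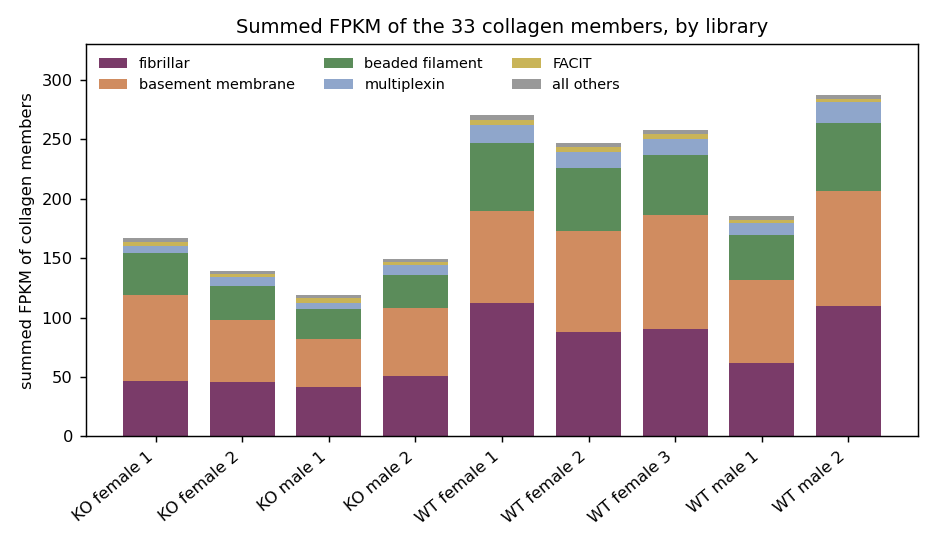
Stacked bars give the summed FPKM of the 33 collagen members in each of the 9 libraries, coloured by structural family. The 4 libraries labelled KO reach 119 to 167 FPKM and the 5 labelled WT 185 to 287 FPKM, with WT male 1 the lowest of the latter.

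The make-up of the sum shifted less than its size. Fibrillar chains held 27.9% to 34.7% of it in libraries labelled KO and 33.3% to 41.4% in those labelled WT, and basement membrane chains held 34.4% to 43.6% against 28.6% to 37.7%. Both pairs of ranges overlapped. FACIT chains held 1.69% to 3.47% against 1.09% to 1.69%, the lowest library labelled KO lying just above the highest labelled WT. The FACIT chains themselves summed to overlapping values, 2.52 to 4.12 FPKM against 2.64 to 4.57 FPKM.

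By a moderated linear model (limma) with the sexes averaged, 30 of the 33 members had a lower estimate in libraries labelled KO. Over all genes tested 62.5% had a lower estimate, the share to set beside the counts of lower estimates below. Of the members, 9 fell at an adjusted p under 0.05. These were *Col1a1*, *Col1a2*, *Col3a1*, *Col5a2*, *Col6a1*, *Col6a2*, *Col6a3*, *Col8a1* and *Col18a1*. No member rose. Over all 14675 genes tested, 2.17% were called lower (319 genes) and 1.43% higher (210 genes). Scaling moved that split: lower calls made up 60.3% of all calls without further normalization, 41.4% after median centring of each library and 48.6% after quantile normalization. The median log2 difference was -0.69 over members and -0.07 over all genes. In 12 members every library labelled KO lay below every library labelled WT, an arrangement found in 6.04% of all genes, and no member had the opposite arrangement, found in 3.03%.

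The number of members past the threshold depended on single libraries and settings. It was 0 without WT female 1, WT female 2, KO female 1, KO female 2 or WT male 2, where 0.0545% to 0.198% of all genes were called in either direction, against 3.60% in the fit of all libraries. It was 1 without WT female 3 (0.252% of all genes), 5 without KO male 1 (3.01%), 12 without KO male 2 (7.53%) and 12 without WT male 1 (5.56%), so the count over all genes moved too. It was 3 after median centring (*Col1a2*, *Col5a2*, *Col6a1*), beside 1.51% of all genes, and 5 after quantile normalization, beside 3.03%. Array weights (0.375%) and a fit without the mean-variance trend (0.232%) each left *Col5a2* alone. WT male 1 was the lowest WT library for 22 of the 33 members, and KO male 1 the lowest library labelled KO for 14. With both left out, a choice made after seeing the data, 13 members passed, all lower, beside 12.8% of all genes.

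**Figure D2:**
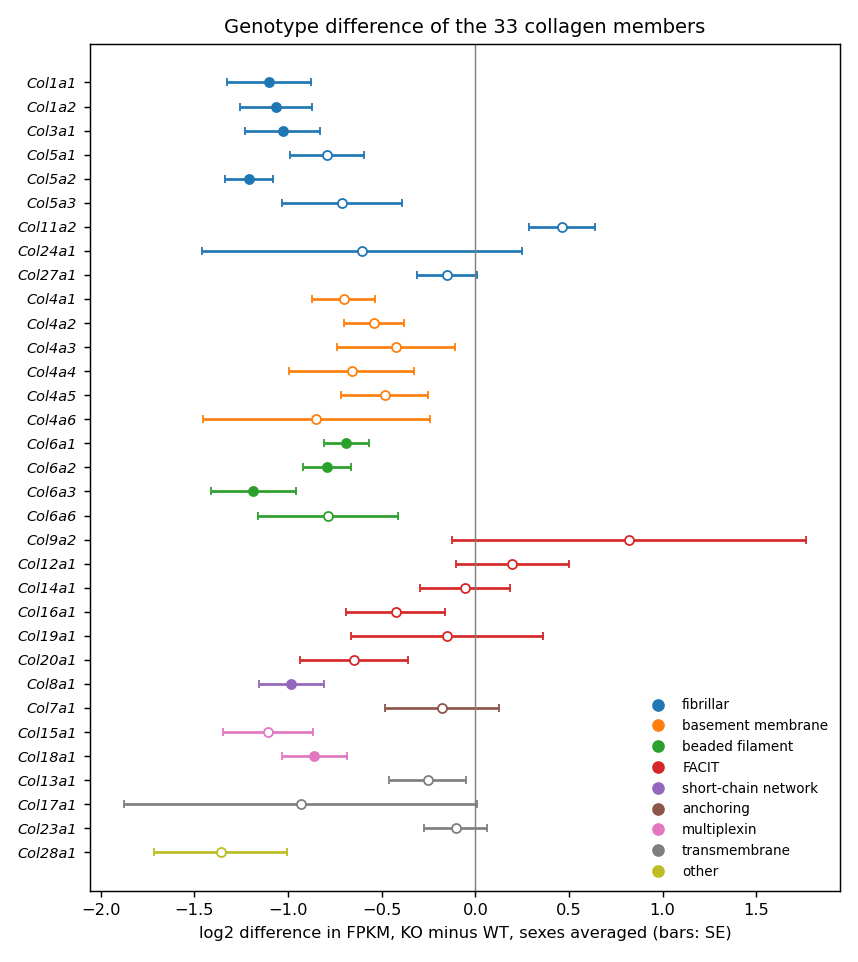
Points give each member's log2 difference in FPKM, KO minus WT with the sexes averaged, with bars of 1 standard error from the limma fit of all 9 libraries. Filled points have an adjusted p under 0.05 and colours give the family, and 30 of the 33 points lie left of 0.

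Sequence upstream of the start site is shown for the members that fell and whose window lies clear of any annotated exon, since members that moved together may be compared there. RefSeq windows (GRCm38.p6) matched 28 of the 33 members. *Col1a1*, *Col5a2*, *Col4a3*, *Col12a1* and *Col14a1* had no entry. The 120 bases before each start are given 5′ to 3′ on the gene's own strand, and capitals mark motifs common near start sites, on either strand. The motif CCAAT was searched first, the motif TATAAA next and the motif GGGCGG last, each with its reverse complement. These motifs can overlap each other only by their end letters.
Col3a1, chr1:45311418-45311537, plus strand: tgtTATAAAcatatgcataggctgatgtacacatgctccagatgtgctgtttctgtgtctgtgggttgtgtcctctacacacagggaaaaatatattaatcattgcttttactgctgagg
Col6a2, chr10:76623631-76623750, minus strand: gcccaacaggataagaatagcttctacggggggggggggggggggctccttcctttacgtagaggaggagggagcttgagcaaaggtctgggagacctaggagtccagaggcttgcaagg
Col6a3, chr1:90843972-90844091, minus strand: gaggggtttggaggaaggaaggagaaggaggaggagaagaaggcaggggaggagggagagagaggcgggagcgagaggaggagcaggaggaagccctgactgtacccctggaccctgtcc
Col8a1, chr16:57754738-57754857, minus strand: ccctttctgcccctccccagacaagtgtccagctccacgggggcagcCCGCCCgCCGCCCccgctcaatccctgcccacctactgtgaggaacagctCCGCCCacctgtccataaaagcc

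The 4 windows shared no motif. *Col8a1* held GGGCGG on the opposite strand at 3 places, *Col3a1* held TATAAA far from its start, and the windows shown for *Col6a2* and *Col6a3* held none of the motifs. *Col6a2* has a second annotated start, whose window (chr10:76623405-76623524) lies in an exon of the gene and is not shown, and which held GGGCGG on the opposite strand at 3 places. Over the full 250 bases upstream, GGGCGG on either strand was in 56.7% of the 30 member windows and 32.7% of all 32851 windows. CCAAT was in 30.0% against 33.9%, and TATAAA in 13.3% against 12.4%. A match describes the letters and not a binding site.

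Fibrillar chains held 4 of the 9 members that fell, out of 9 in the family, and their median log2 difference was -0.79. Gene positions are those of GENCODE M21 on mm10 (GRCm38). *Col1a1* (chr11:94936224-94953042) and *Col1a2* (chr6:4504814-4541544) encode the chains of type I collagen, the main collagen of fibrous tissue. *Col1a1* was at 6.40, 6.17, 7.22 and 7.57 FPKM in libraries labelled KO and at 18.4, 13.4, 15.3, 9.20 and 20.6 FPKM in those labelled WT. The highest library labelled KO stayed below WT male 1, which was itself well below the other WT libraries. Its log2 difference was -1.10 (SE 0.23, adjusted p 0.0453), or 46.5% of the WT level. *Col1a2* was at 7.52, 8.50, 10.96 and 9.79 FPKM against 23.7, 17.2, 18.0, 13.6 and 25.4 FPKM. It fell by 1.06 on the log2 scale (SE 0.19, adjusted p 0.0370) with no overlap.

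*Col3a1* (chr1:45311538-45349706), the chain of type III collagen, which accompanies type I in pliable tissue, was the most abundant fibrillar member. Its FPKM was 17.4, 17.6, 14.1 and 21.0 in libraries labelled KO and 47.6, 37.0, 37.2, 23.1 and 42.1 in those labelled WT. The gap between the genotypes was narrow, between KO male 2 and WT male 1. The log2 difference was -1.03 (SE 0.20, adjusted p 0.0418).

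Type V collagen joins type I fibrils and limits their width, and its chains differed in how clearly they separated. *Col5a2* (chr1:45374321-45503282) lies on the strand opposite *Col3a1* with its end 24614 bases from that of its neighbour. It was at 2.77, 2.76, 2.99 and 2.94 FPKM in libraries labelled KO and at 8.45, 7.51, 5.78, 5.69 and 6.61 FPKM in those labelled WT. The libraries labelled KO lay within a narrow band, far under the lowest WT library. Its log2 difference of -1.21 (SE 0.13, adjusted p 0.0156) ranked 17 by p among all genes tested, and its adjusted p was under 0.05 in 15 of 20 limma fits with the sexes averaged, counting the one reported. It passed 0.05 no longer without WT female 1, WT female 2, KO female 1, KO female 2 or WT male 2 (adjusted p 0.0510 to 0.0979, a fit short of 1 library each), while its log2 difference stayed between -1.29 and -0.98 over all 20. *Col5a1* (chr2:27886425-28039514) was at 2.38, 1.86, 1.61 and 2.15 FPKM against 3.68, 3.30, 3.15, 2.61 and 4.65 FPKM. Its libraries did not overlap either, yet its log2 difference of -0.79 (SE 0.20) missed the threshold (adjusted p 0.0695). *Col5a3* (chr9:20770050-20815067) was at 3.50, 3.58, 1.42 and 4.15 FPKM against 5.34, 5.17, 4.59, 3.41 and 6.22 FPKM, with WT male 1 inside the range of the libraries labelled KO (log2 difference -0.71, SE 0.32, adjusted p 0.269).

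The remaining fibrillar members, *Col11a2*, *Col24a1* and *Col27a1*, had log2 differences of 0.46, -0.61 and -0.15 and did not pass the test. *Col11a2*, a chain of the type XI collagen known from cartilage, was at 1.05 and 1.17 FPKM in the KO females and at 0.453 to 0.647 FPKM in the other 7 libraries. *Col24a1* was near the lower limit of the measurement, at 0.00600 to 0.0960 FPKM over all libraries.

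**Figure D3:**
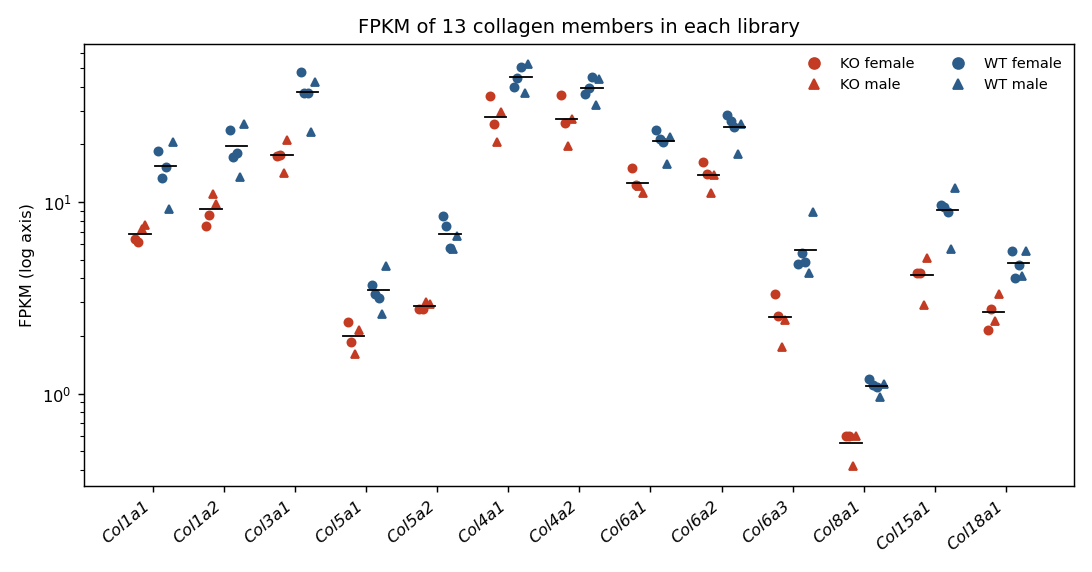
FPKM of 13 collagen members on a log axis, 1 point per library, with libraries labelled KO in red at left and those labelled WT in blue at right of each gene, circles for females and triangles for males. Black lines give the mean. The 13 are *Col4a2*, whose genotypes overlap, and the 12 members whose genotypes do not, so the separation seen follows from the choice. Among all genes 6.04% had every library labelled KO below every library labelled WT.

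Basement membrane chains of type IV collagen all had lower estimates, 6 of 6 with a median log2 difference of -0.60, and none of the 6 passed the test. *Col4a1* (chr8:11198423-11312826) and *Col4a2* (chr8:11312805-11449287) form the common type IV heterotrimer and face away from each other across 22 shared bases, so reads there could not be split without strand. *Col4a1*, the collagen with the highest mean FPKM in both genotypes, was at 35.9, 25.5, 20.6 and 29.4 FPKM in libraries labelled KO and at 39.9, 44.4, 50.5, 37.1 and 52.5 FPKM in those labelled WT. The genotypes did not overlap, and the log2 difference was -0.70 (SE 0.17, adjusted p 0.0648). *Col4a2* was at 36.3, 25.9, 19.7 and 27.2 FPKM against 36.4, 39.5, 44.7, 32.1 and 43.7 FPKM. KO female 1 reached into the WT range, and the log2 difference was -0.54 (SE 0.16, adjusted p 0.102). The other type IV chains, known from the basement membranes of the kidney and other specialised epithelia, were scarce. *Col4a3*, *Col4a4* and *Col4a6* were at 0.0316 to 0.234 FPKM and *Col4a5* at 0.240 to 0.684 FPKM over all libraries, with log2 differences of -0.43, -0.66, -0.85 and -0.48.

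Beaded filament chains of type VI collagen had lower estimates in 4 of 4, and 3 of them fell. *Col6a1* (chr10:76708792-76726168) was at 15.0, 12.2, 12.1 and 11.1 FPKM in libraries labelled KO and at 23.9, 21.4, 20.6, 15.7 and 21.9 FPKM in those labelled WT. *Col6a2* (chr10:76595762-76623630) was at 16.2, 14.0, 11.2 and 13.8 FPKM against 28.3, 26.4, 24.7, 17.8 and 25.4 FPKM. Neither gene's genotypes overlapped, with WT male 1 the lowest WT library in both. Their log2 differences were -0.69 (SE 0.12, adjusted p 0.0352) and -0.79 (SE 0.13, adjusted p 0.0323). *Col6a3* (chr1:90765923-90843971), the longest of the common type VI chains and the source of the fragment endotrophin, was at 3.30, 2.54, 1.74 and 2.41 FPKM against 4.77, 5.41, 4.86, 4.28 and 8.85 FPKM. WT male 2 stood well above the other WT libraries. The log2 difference was -1.19 (SE 0.23, adjusted p 0.0403), and without WT male 2 it was -0.92 (adjusted p 0.0750), a fit in which 0.198% of all genes and no member passed. *Col6a6* was scarcer, at 0.0964 to 0.208 FPKM against 0.169 to 0.452 FPKM, and did not pass (log2 difference -0.78, adjusted p 0.296).

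FACIT chains, which decorate fibrils, had a median log2 difference of -0.10, with 4 of 6 estimates lower, 2 higher and none past the threshold. The 4 are 66.7% of the family, near the 62.5% of all genes with a lower estimate. *Col14a1* (chr15:55307750-55520803), the FACIT member with the highest mean FPKM, was at 1.32, 0.957, 1.99 and 0.992 FPKM in libraries labelled KO and at 1.85, 1.53, 2.16, 0.883 and 0.981 FPKM in those labelled WT. The ranges were much the same, and the log2 difference was -0.06 (SE 0.24, adjusted p 0.943). *Col12a1*, which also binds type I fibrils, had a log2 difference of 0.20, and *Col16a1*, *Col19a1* and *Col20a1* had -0.43, -0.15 and -0.65. *Col9a2* had 0.82 with an SE of 0.95, from values of 0.0136 to 0.294 FPKM. Whether the FACIT family differed from the fibrillar family was not tested.

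Outside these families, *Col8a1* (chr16:57624258-57754737), a short-chain collagen of vessel walls, was at 0.601, 0.600, 0.420 and 0.597 FPKM in libraries labelled KO and at 1.20, 1.11, 1.08, 0.963 and 1.13 FPKM in those labelled WT. Its genotypes were well apart, at 50.6% of the WT level (log2 difference -0.98, SE 0.17, adjusted p 0.0352). The multiplexins are collagens of vessel and muscle basement membranes, and *Col18a1* is the source of endostatin. *Col18a1* (chr10:77052178-77166548) was at 2.15, 2.77, 2.39 and 3.29 FPKM against 5.55, 4.00, 4.70, 4.09 and 5.58 FPKM. It fell by 0.86 on the log2 scale (SE 0.17, adjusted p 0.0440), with no overlap. *Col15a1* (chr4:47208161-47313167) was at 4.27, 4.26, 2.91 and 5.12 FPKM against 9.65, 9.45, 8.89, 5.68 and 11.8 FPKM. It also did not overlap, and with a log2 difference of -1.11 (SE 0.24) it lay just outside the threshold (adjusted p 0.0521).

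The members left showed wider spread. *Col28a1* (chr6:7997808-8192617) was at 0.0618, 0.0709, 0.121 and 0.151 FPKM in libraries labelled KO and at 0.325, 0.418, 0.217, 0.282 and 0.130 FPKM in those labelled WT, so that only WT male 2 entered the lower range. It had the lowest estimate of all members, -1.36 on the log2 scale (SE 0.36, adjusted p 0.0772). *Col7a1* (chr9:108953586-108984875), the chain of anchoring fibrils under epithelia, was at 0.370, 0.296, 0.121 and 0.263 FPKM against 0.275, 0.202, 0.280, 0.297 and 0.308 FPKM, with KO libraries at both ends (log2 difference -0.18, SE 0.30). *Col23a1* (chr11:51289920-51583918), a transmembrane collagen, was at 1.004, 1.08, 1.09 and 0.760 FPKM against 1.15, 1.06, 1.08, 1.12 and 0.890 FPKM, and its ranges overlapped (log2 difference -0.10, SE 0.17). The other transmembrane chains, *Col13a1* and *Col17a1*, had log2 differences of -0.25 and -0.93, the latter with an SE of 0.94.

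The 16 members with a mean FPKM of at least 1 all had lower estimates, with a median log2 difference of -0.79, and 8 of them passed the test. Of the 17 scarcer members, 14 had lower estimates, with a median of -0.48, and 1, *Col8a1*, passed. The SE of the scarcer members ran from 0.17 for *Col8a1* to 0.95 for *Col9a2*, so their estimates differ widely in precision.

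Each sex was then examined alone, and no member passed in either. In females, 28 of 33 estimates were lower, beside 60.2% of all genes, with a median log2 difference of -0.70. There 14 members had an unadjusted p under 0.05, 42.4% of them against 12.7% of all genes. In males, 27 were lower, beside 60.1% of all genes, with a median of -0.68, and 14 again had an unadjusted p under 0.05, against 16.6% of all genes. Over all genes the share called at an adjusted p under 0.05 was 0.0204% in females and 0.0136% in males. *Col5a2* came nearest in both sexes, with log2 differences of -1.37 in females (adjusted p 0.0660) and -1.05 in males (adjusted p 0.0760). The ordinary linear model of the study's methods, at an unadjusted p under 0.01 in females, called 6 members: *Col1a2*, *Col5a2*, *Col6a2*, *Col8a1* and *Col28a1* were lower and *Col11a2* higher, beside 3.43% of all genes. With limma array weights, 10 members passed in females, all lower, beside 2.53% of all genes. Leaving out WT female 3 let *Col5a2* pass in females (0.0545% of all genes). The male fits that follow each rest on a single library of a group, KO male 1, which stood apart from the others, or WT male 2. In males, 5 members passed without KO male 2 (8.81% of all genes) and 4 without WT male 1 (2.28%), all lower.

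**Figure D4:**
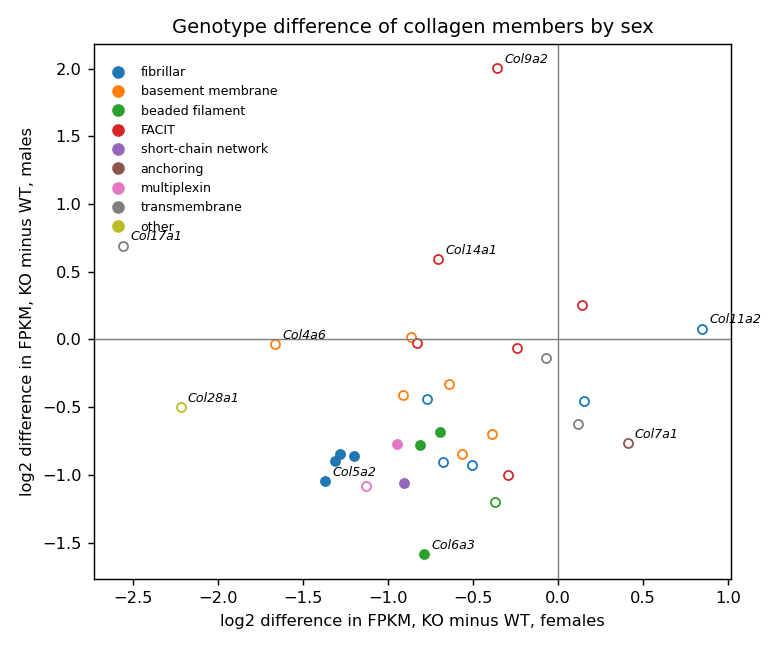
Each point is 1 of the 33 members, placed by its log2 difference in FPKM, KO minus WT, in females (horizontal) and in males (vertical), with filled points for the 9 members past the threshold when the sexes are averaged. Those 9 lie below 0 in both sexes. *Col4a3*, *Col9a2*, *Col14a1* and *Col17a1* lie below 0 in females and above 0 in males. *Col7a1*, *Col13a1* and *Col27a1* lie above 0 in females and below 0 in males. None of these members passed the test.

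The difference between the sexes in the genotype difference was tested directly by the interaction term. No member passed, nor did any other gene (0.0%), and 2 members (6.06%) and 1028 genes in all (7.01%) had an unadjusted p under 0.05. Among the members the lowest adjusted p was 0.688, for *Col14a1*. The log2 difference of *Col14a1* was -0.70 in females and 0.59 in males, an interaction of 1.30 (SE 0.48). It passed the threshold in the fit without KO male 2, where 4.91% of all genes passed. *Col28a1*, the other member, had -2.22 in females and -0.50 in males. Among the type VI chains, the log2 difference of *Col6a3* was -0.79 in females against -1.59 in males, and the interaction of -0.80 (SE 0.45) had an adjusted p of 0.721. For *Col6a1* it was -0.70 against -0.68, with an interaction of 0.01 (SE 0.24). Sex with the genotypes averaged gave no member past the threshold either, where 0.0136% of all genes passed. An unadjusted p under 0.05 was found for 5 members, 15.2% of them, and for 10.4% of all genes. Of the 33 estimates, 25 were lower in males, beside 48.5% of all genes, with a median log2 difference of -0.16.

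Chains of the same collagen type were also set against each other within each library, where library scaling cancels. *Col3a1* of type III was set against *Col1a1* of type I in the same way. The ratio of *Col4a1* to *Col4a2* was 0.988, 0.984, 1.05 and 1.08 in libraries labelled KO and 1.09, 1.12, 1.13, 1.16 and 1.20 in those labelled WT. The genotypes did not overlap, with means of 1.02 ± 0.0466 (SD, n = 4) and 1.14 ± 0.0391 (SD, n = 5). The exact permutation test of the genotype labels gave a two-sided p of 0.00794, the smallest it can give, and 0.0476 after adjustment over 6 ratios. In both genotypes the males lay above the females. With 1 library left out, the exact p of the *Col4a1* to *Col4a2* ratio was 0.0179 or 0.0286, each the smallest the remaining splits can give. The adjusted p of 0.0857 to 0.171 therefore cannot tell whether the result rests on 1 library. With a pseudocount of 0.1 the exact p was again 0.00794, and the adjusted p was 0.0556 because 7 ratios were then formed. The log2 difference of -0.15 stayed between -0.18 and -0.14. The ratio of *Col8a1* to *Col8a2* was not among the 6, because *Col8a2* was at 0 in KO female 2. It was formed only with the pseudocount or without that library.

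The other ratios did not separate the genotypes by the exact permutation test. *Col5a1* to *Col5a2* was 0.700 ± 0.131 (SD, n = 4) in libraries labelled KO and 0.516 ± 0.114 (SD, n = 5) in those labelled WT (exact p 0.0635, adjusted 0.159). *Col6a3* to *Col6a1* was 0.198 ± 0.0359 against 0.273 ± 0.0778, with WT male 2 far above the rest at 0.403 (exact p 0.0794, adjusted 0.159). *Col1a1* to *Col1a2* (0.752 ± 0.0809 against 0.778 ± 0.0633) and *Col3a1* to *Col1a1* (2.58 ± 0.420 against 2.46 ± 0.264) both had an adjusted p of 0.643, and *Col6a1* to *Col6a2* had 0.321.

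**Figure D5:**
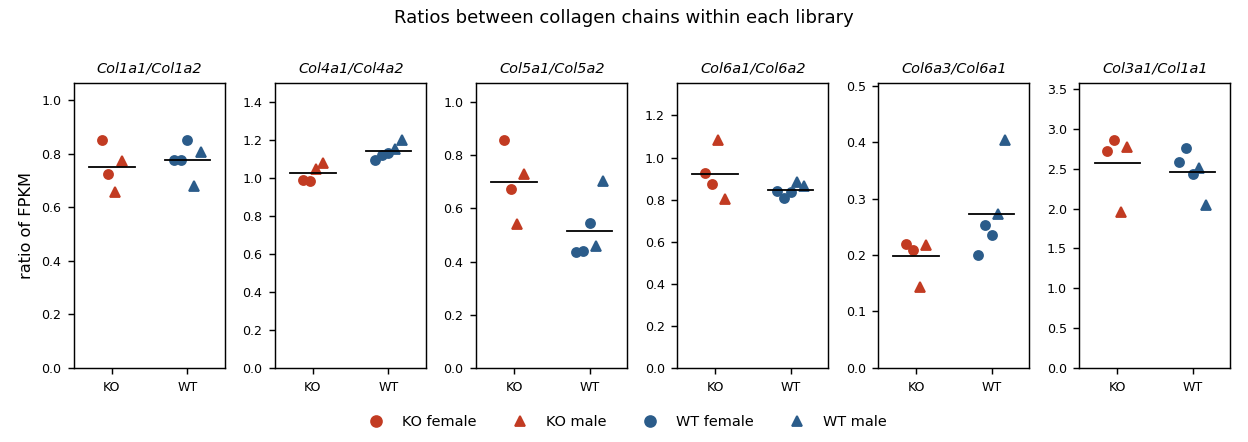
Ratios of FPKM between collagen chains, 1 panel per pair with its own axis from 0, with 1 point per library (circles females, triangles males, red labelled KO, blue labelled WT) and black lines at the mean. Only for *Col4a1* to *Col4a2* do the 4 points labelled KO, 0.984 to 1.08, all lie below the 5 labelled WT, 1.09 to 1.20.

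Genes that make, trim, bind and degrade collagen were counted from a list of 67, of which 62 were tested. Estimates were lower in libraries labelled KO for 52 and higher for 10, where 62.5% of all genes were lower. The median log2 difference was -0.33, and 9 fell at an adjusted p under 0.05, beside 2.17% of all genes. None rose. This count was 0 after median centring, with array weights and without the trend. It was also 0 without WT female 1, 2 or 3, KO female 1 or 2, or WT male 2, and 5 without KO male 1, fits whose shares over all genes are those given for the members.

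Among 19 enzymes and chaperones of chain synthesis, 4 fell. *Crtap* and *P3h4*, partners of the prolyl and lysyl hydroxylases, had log2 differences of -0.42 (adjusted p 0.0382) and -0.59 (adjusted p 0.0426). *Plod3*, a lysyl hydroxylase and glycosyltransferase, had -0.48 (adjusted p 0.0426), and *Fkbp14*, a prolyl isomerase, had -0.56 (adjusted p 0.0469). *Crtap* was at 19.3, 20.7, 21.1 and 19.8 FPKM in libraries labelled KO and at 31.2, 27.6, 28.5, 23.1 and 27.1 FPKM in those labelled WT, without overlap. The prolyl hydroxylase subunits *P4ha1* and *P4ha2* had estimates of 0.53 and 0.17, and *Serpinh1*, the collagen chaperone HSP47, had -0.29, none of which passed.

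Of 13 genes of secretion, propeptide cleavage and cross-linking, *Sparc*, a collagen-binding matrix protein, was the only one to fall. It was at 121, 107, 89.2 and 107 FPKM in libraries labelled KO and at 179, 190.5, 184, 144 and 199 FPKM in those labelled WT, well apart (log2 difference -0.74, SE 0.11, adjusted p 0.0290). The procollagen proteinases *Adamts2* (-0.70, adjusted p 0.107) and *Bmp1* (-0.58, adjusted p 0.140) followed, and the lysyl oxidase *Lox* had -0.53 (adjusted p 0.242). *Loxl1* had 0.18.

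Of 8 receptors, *Itga1*, the collagen-binding integrin chain, fell by 0.51 on the log2 scale (adjusted p 0.0347), from 7.93 to 5.60 FPKM in mean. *Mrc2*, which takes up cleaved collagen, fell by 0.95 (adjusted p 0.0356), from 1.81 to 0.944 FPKM. *Itgb1*, the partner of *Itga1*, had a log2 difference of -0.25 (adjusted p 0.0989) and did not overlap between genotypes.

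Of 10 collagenases and inhibitors, the metalloproteinase inhibitors *Timp3* (-0.67, adjusted p 0.0357) and *Timp4* (-0.70, adjusted p 0.0343) fell, though both overlapped between genotypes. *Mmp2*, a gelatinase, had a log2 difference of -0.80 (adjusted p 0.0609), and *Ctsk*, a protease that cleaves the collagen helix, had -1.43 (adjusted p 0.0609). None of 12 upstream genes passed. *Tgfbr2* came nearest at -0.46 (adjusted p 0.0629), followed by *Smad3* (0.29, adjusted p 0.382) and *Smad2* (-0.19, adjusted p 0.411). The ligands *Tgfb1*, *Tgfb2* and *Tgfb3* had -0.22, 0.30 and 0.05.

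The 11 collagen symbols at 0 in at least 1 library were *Col2a1*, *Col6a4*, *Col6a5*, *Col8a2*, *Col9a1*, *Col9a3*, *Col10a1*, *Col11a1*, *Col22a1*, *Col25a1* and *Col26a1*. *Col9a3* missed the condition narrowly, listed at 0 in KO female 2 and at 0.0525 to 0.125 FPKM elsewhere, while *Col24a1* met it with a lowest value of 0.00600 FPKM. *Col6a4* was at 0.730 FPKM in KO male 1 and at no more than 0.0165 FPKM in any other library. *Col6a5* was at 0.188, 0.0286, 0.159, 0.0235 and 0.324 FPKM in the WT group. It reached 0.0137, 0.0135 and 0.0347 FPKM in KO female 1, KO female 2 and KO male 1 and was listed at 0 in KO male 2.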

How the data were processed

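Brown adipose RNA of 9 mice was selected for poly A+, made into TruSeq libraries and sequenced as paired ends. The authors made FASTQ files with bcl2fastq 1.8.4, mapped them to mm10 with TopHat 2.0.11, estimated abundances with Bowtie as their methods state, and deposited FPKM per gene symbol, 1 table per library. The annotation and strand setting are not given in the sources used here, nor are fragment counts, so no counting interval is given and the number of mice limits the precision. FPKM were analysed as log2 values with no further normalization, for 14675 of 24356 symbols above 0 in all libraries. Some listed values were extremely close to 0: with the sexes averaged, log2 differences over all genes ran from -94.2 to 109. Such genes entered the fit and the shares over all genes. With a mean FPKM of at least 1, 9 members passed beside 5.88% of 10877 genes.

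limma 3.58.1 (R 4.3.3) fitted 1 mean per group with a mean-variance trend, and Benjamini-Hochberg adjustment covered all tested genes at 0.05. It was tested on simulated data with independent noise and libraries of equal quality. That test therefore does not bear on how far single libraries move the counts. Ratios of chains were compared by exact permutation without regard to sex. Positions came from GENCODE M21, where all 33 members matched and shared at most 5.65% of exon bases with another gene, and upstream sequence from RefSeq. Values were given in full for members past the threshold, members without overlap, the most abundant of each family and a fixed set of common chains, 18 in all, and for pathway genes past the threshold or of the 3 lowest p in a subgroup. *P4ha1*, *P4ha2*, *Serpinh1*, *Lox*, *Loxl1*, *Ctsk*, the *Tgfb* ligands and symbols at 0 in a library were chosen after their values were seen. Alternatives were pseudocounts of 0.1 and 1, a mean FPKM of at least 1, no filter, centring, quantile normalization, array weights, no trend, no interaction, the methods' ordinary linear model and each library left out. The members, families and lists were chosen with earlier results of these data known. Python 3.11.15, pandas 2.3.3, numpy 2.4.6 and matplotlib 3.10.9 were used.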

Additional observations from a re-analysis of the deposited data

Results flagged for a closer look

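Single libraries stood apart within their genotype for 2 of the 18 members given in full, out of 38 sets of 4 or 5 libraries examined, and chance alone gives about 1 in 20. *Col6a3* was at 8.85 FPKM in WT male 2, far above the other libraries labelled WT. *Col8a1* was at 0.420 FPKM in KO male 1, below the other libraries labelled KO, which lay between 0.597 and 0.601 FPKM.

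Among the collagen symbols left out of the tests because they were at 0 in some libraries, *Col22a1* and *Col26a1* had medians in libraries labelled KO, 0.0619 and 0.0490 FPKM, above every library labelled WT. *Col22a1*, known from tendon and muscle junctions, was at 0.182, 0.00691, 0.0413 and 0.0825 FPKM in libraries labelled KO. It was at 0.00671 and 0.00642 FPKM in WT female 1 and WT female 3 and listed at 0 in the other libraries labelled WT. *Col26a1* was at 0.0495, 0.0554 and 0.0485 FPKM in 3 libraries labelled KO and listed at 0 in KO female 2. Skeletal muscle markers were higher in the libraries labelled KO as well, and their part in these values was not tested.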

How the results depend on the processing

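With the sexes averaged, 9 members passed. Without a filter and with a pseudocount of 0.1 it was 2, after median centring 3, after quantile normalization 5, with array weights or without the trend 1, and with 1 library left out 0 to 12. In females, where none passed, array weights gave 10, leaving out KO male 1 and WT male 1 gave 8, and leaving out 1 library gave 0 to 1. In males the latter pair gave 6 and single libraries 0 to 5. The interaction gave 0 to 1 and sex 0 to 0 with 1 library left out. Of the listed pathway genes 9 passed. Among the counts that follow, that of the methods' model alone is at an unadjusted p under 0.01 in females. The count was 2 without a filter, 0 after centring, with array weights or without the trend, 4 by the methods' model, 22 without KO male 1 and WT male 1, and 0 to 11 with 1 library left out.

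The median log2 difference over members was -0.15 with a pseudocount of 1. For fibrillar chains it was -1.10 without KO male 1 and WT male 1 and -1.16 to -0.58 with 1 library left out. For basement membrane chains it was -0.37 with a pseudocount of 0.1, filtered or not, -0.10 with a pseudocount of 1, -0.75 by the methods' model, which is for females, and -0.74 to -0.46 with 1 library left out. The FACIT median turned to 0.0217 after quantile normalization and ran from -0.303 to 0.0944 with 1 library left out. *Col14a1* turned to 0.0021 after centring and ran from -0.307 to 0.195 with 1 library left out. *Col7a1* turned to 0.10 without KO male 1, 0.0904 without KO male 1 and WT male 1 and 0.409 by the methods' model, and *Col23a1* ran from -0.234 to 0.0243 with 1 library left out. Of the 6 chain ratios, 1 passed. With a pseudocount of 0.1 it was 0 of 7, at the same exact p for *Col4a1* to *Col4a2*. It was 0 to 0 with 1 library left out, where that ratio was at the smallest exact p the splits can give. With 1 library left out, the log2 difference of the *Col3a1* to *Col1a1* ratio ran from -0.0108 to 0.183 and that of *Col1a1* to *Col1a2* from -0.113 to 0.01. No paired analysis was possible because the labels give each mouse its own number and no shared replicate number. Where 1 library was left alone in its group, it was assumed to vary like the other groups. The cause of each change was not tested. FPKM carry no counts, so depth limits the scarce chains to an unknown degree.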
